A study of Mus musculus with 69 samples.

Results

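Mouse prostate organoids labelled TKO were compared after 2 treatments, COMBO and YAPi_NOTCHi, with bulk sequencing of their polyA RNA. The comparison used all 3 TKO COMBO libraries and all 3 TKO YAPi_NOTCHi libraries labelled D8, which are 6 of the 69 libraries of the series, chosen by their labels alone. Organoids are epithelial cells grown as small bodies in culture. The treatment names are codes, and by these names YAPi and NOTCHi are directed at YAP and NOTCH, while the labels do not say what COMBO contains. TKO libraries labelled DMSO, a common solvent for such agents, and D8 are given as levels beside the other groups. No treatment was tested against DMSO, so statements about DMSO compare levels only. For differences between lines, the same pair of treatments at D8 was taken from organoids labelled PtP, from organoids labelled WT and from organoids labelled PRAD, each with 3 libraries a treatment. The labels name no altered gene for TKO, PtP or PRAD, give no age, strain or sorted cell type, and do not say whether a line is 1 clone or whether replicates are separate cultures. All p-values therefore rest on the variation among these libraries, and that variation may be technical.

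As background, androgens drive the secretory genes of the luminal prostate epithelium, and glucocorticoids act through a closely related receptor on the same kind of DNA element and share part of the targets. YAP is a transcriptional coactivator that works through TEAD factors and responds to matrix and cell shape, and NOTCH receptors keep many epithelia from adopting neuroendocrine fates. Neuroendocrine prostate cancer is known for loss of androgen-driven genes and for expression of chromogranins, synaptophysin and neural transcription factors. The series title concerns extracellular matrix, lineage plasticity and YAP/TEAD, and this pair of treatments asks what COMBO changes beyond YAPi_NOTCHi in the TKO line.

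The TKO COMBO libraries held 92280307, 22347919 and 21457763 counts and the TKO YAPi_NOTCHi libraries 22805950, 22768207 and 22937326, so low levels are most precise in COMBO replicate 1. Libraries of 1 group differed by more than sampling noise, with chi-square values per degree of freedom of 1.79 to 2.38. Levels below are CPM, a gene's counts scaled to a common library total with a correction for composition, in the order of replicates 1, 2 and 3, and a ± that follows a log2 fold change gives the standard error. The threshold was an adjusted p under 0.05 (edgeR's quasi-likelihood test, Benjamini-Hochberg over all 18430 genes tested), and only genes past it are said to rise, fall, or be higher or lower. Epithelial markers were present in every library: Epcam, Cdh1, Krt8, Krt18, Krt5 and Krt14 together gave 3566 to 3656 CPM in the COMBO libraries and 2935 to 2965 CPM in the YAPi_NOTCHi libraries. Both treated groups lay below the DMSO libraries, where the same markers gave 9213 to 9257 CPM. Ccn2, a YAP/TEAD target, had 0.161, 0 and 0.201 CPM in the COMBO libraries and 0.665, 0.864 and 0.774 CPM in the YAPi_NOTCHi libraries, against 360.4, 362 and 353 CPM in the DMSO libraries, so both treated groups lay far below DMSO. Trp53 and Rb1 averaged 41.9 and 83.0 CPM in that order in the COMBO libraries and 46.0 and 60.97 CPM in the YAPi_NOTCHi libraries. These are counts over whole genes, and since the labels name no target they check no label.

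COMBO changed many genes slightly and a small set strongly, and among changes of 4-fold or more losses outnumbered gains. Of 18430 genes tested, 11980 passed (65.0%), 6899 of them higher (37.4%) and 5081 lower (27.6%) with COMBO than with YAPi_NOTCHi. This excess of rises was lost with upper quartile scaling, which gave 5903 higher and 5881 lower, and in a fit of the compared groups alone, which gave 5845 higher and 6054 lower. With a change of at least 2-fold added, 1518 genes passed (8.24%), 681 higher (3.70%) and 837 lower (4.54%). At 4-fold the counts were 118 higher and 278 lower, and at 16-fold 17 higher and 66 lower. The median log2 fold change over all genes tested was 0.07. The common coefficient of variation between libraries, beyond counting noise, was 2.37%. Small changes therefore passed the test, and the counts at 2-fold or more are the more useful ones. The gene list counts below stand beside these shares, and a list whose counts of rises and falls lie close together can change direction with the scaling.

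**Figure D1:**
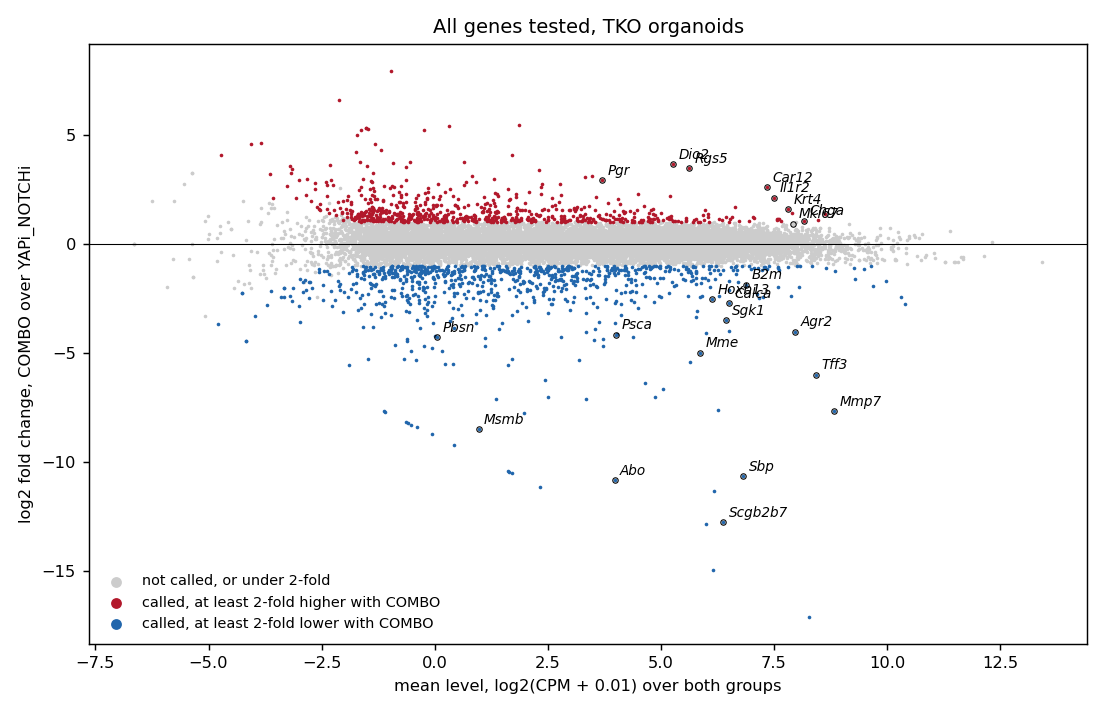
Each point is 1 of 18430 genes. The x axis is its mean level over the COMBO and YAPi_NOTCHi groups as log2(CPM + 0.01), and the y axis is its log2 fold change, COMBO over YAPi_NOTCHi. The 681 genes at least 2-fold higher sit closer to 0 than the losses, and losses reach beyond -10 at genes such as Sbp and Abo.

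Androgen and glucocorticoid response genes fell more often than they rose. Of the androgen and glucocorticoid response list, 28 of 30 members were tested, 6 rose and 17 fell, 1 and 9 of these 2-fold or more, and the list had a median log2 fold change of -0.43 against 0.07 over all genes. Pbsn encodes probasin, an androgen-regulated secretory protein of the mouse prostate, and had 0.0852, 0.0770 and 0.161 CPM in the COMBO libraries, against 1.84, 2.20 and 1.82 CPM in the YAPi_NOTCHi libraries, a log2 fold change of -4.28 ± 0.27 (edgeR adjusted p = 1.96e-15). The groups did not overlap, as held for 68.1% of all genes tested (39% higher and 29% lower). These are low levels, of 15 counts over the COMBO group and 150 over the YAPi_NOTCHi group, and Pbsn had no count in the DMSO libraries. Msmb, which encodes the secreted beta-microseminoprotein, had 1 count over the COMBO group and 300 over the YAPi_NOTCHi group, a level 611 times lower with a 95% counting interval of 109 to 24199. Azgp1, which encodes a secreted zinc-binding glycoprotein, had 0.965, 0.770 and 1.21 CPM in the COMBO libraries and 26.4, 24.8 and 25.3 CPM in the YAPi_NOTCHi libraries, a log2 fold change of -4.71 ± 0.09. In bulk RNA, fewer cells of a type and less RNA per cell cannot be told apart, here and for every list below. For each of these 3 genes all COMBO libraries lay below all YAPi_NOTCHi libraries.

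Steroid-induced regulators fell by different amounts. Sgk1, a kinase induced by glucocorticoids, had 13.7, 15.2 and 14.4 CPM in the COMBO libraries, against 162, 156 and 162 CPM in the YAPi_NOTCHi libraries and 367, 365 and 377 CPM in the DMSO libraries, a log2 fold change of -3.50 ± 0.04 for COMBO over YAPi_NOTCHi. Zbtb16, a zinc finger repressor induced by androgens and glucocorticoids, had 1.98, 1.89 and 2.41 CPM in the COMBO libraries and 18.2, 19.8 and 16.6 CPM in the YAPi_NOTCHi libraries (-3.16 ± 0.10). Fkbp5, a co-chaperone of steroid receptors, fell much less, with 24.5, 24.6 and 26.3 CPM in the COMBO libraries and 47.2, 44.1 and 45.4 CPM in the YAPi_NOTCHi libraries, a log2 fold change of -0.87 ± 0.05. Tmprss2, an androgen-regulated membrane protease, changed by a similar log2 fold change of -0.75 ± 0.02, and Tsc22d3, which encodes the glucocorticoid-induced leucine zipper, changed by -0.41 ± 0.05. Slc45a3, Klf9 and Steap4 had log2 fold changes of -1.70, -1.65 and -1.32. Not every member fell: Hpgd, a prostaglandin-degrading enzyme, was higher at 1.40 ± 0.05, as were Homer2, a synaptic scaffold protein, at 0.78 ± 0.03, and the clock gene Per1 at 0.27 ± 0.04. Nr3c1, the glucocorticoid receptor, rose slightly, with 44.1, 43.8 and 41.3 CPM in the COMBO libraries and 31.6, 31.7 and 29.5 CPM in the YAPi_NOTCHi libraries (0.49 ± 0.05), and stayed below the 59.7, 60.6 and 63.9 CPM of the DMSO libraries.

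Promoter windows of 2 of these genes and of 2 secretoglobin genes are shown because they belong to genes with large losses and bear on the DNA element of steroid receptors. The windows are RefSeq GRCm38.p6, 250 bases before to 50 after an annotated start, read on the gene's strand. The full element searched was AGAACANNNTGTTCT, and the single arm searched was AGAACA, each on both strands, so that every full element also holds the arm. Of 15486 windows of 12128 tested genes, 1 held the full element (0.00646%) and 2037 held the arm (13.2%). The 1 window was that of Sgk1, at chr10:21993640-21993939 on the plus strand, 1 of 6 windows of that gene, where the element starts 189 bases before the start site. Pbsn at chrX:77853451-77853750 on the minus strand held 1 arm 95 bases before its start. Among the 22 androgen and glucocorticoid list genes with a window, 5 held the arm (22.7%), against 15.4% of all genes. Scgb2b7 at chr7:31705705-31706004 and Scgb2b17 at chr7:33056503-33056802, both on the minus strand, each held 1 arm, and the pair shared 270 of 293 aligned bases (92.2%). The motifs and genes were chosen after the values were seen, and a match is not a measured binding site. Capitals mark the element in Sgk1 and the single arm, on either strand, in the others.
Sgk1: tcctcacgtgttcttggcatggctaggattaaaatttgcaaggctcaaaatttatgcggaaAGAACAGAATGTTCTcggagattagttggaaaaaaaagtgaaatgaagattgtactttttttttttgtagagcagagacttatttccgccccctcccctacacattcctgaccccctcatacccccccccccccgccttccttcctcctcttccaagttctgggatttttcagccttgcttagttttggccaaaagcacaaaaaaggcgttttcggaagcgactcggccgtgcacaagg
Pbsn: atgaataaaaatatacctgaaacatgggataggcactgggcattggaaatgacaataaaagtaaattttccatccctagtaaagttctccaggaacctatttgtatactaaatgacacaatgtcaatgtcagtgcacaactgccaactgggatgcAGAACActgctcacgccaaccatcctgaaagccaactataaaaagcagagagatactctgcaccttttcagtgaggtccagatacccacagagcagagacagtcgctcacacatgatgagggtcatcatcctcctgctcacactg
Scgb2b7: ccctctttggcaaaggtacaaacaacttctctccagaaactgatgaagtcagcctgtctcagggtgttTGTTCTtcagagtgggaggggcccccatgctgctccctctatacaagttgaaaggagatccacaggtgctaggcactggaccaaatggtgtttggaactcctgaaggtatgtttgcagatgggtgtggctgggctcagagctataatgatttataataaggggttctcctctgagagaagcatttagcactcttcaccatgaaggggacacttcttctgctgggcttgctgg
Scgb2b17: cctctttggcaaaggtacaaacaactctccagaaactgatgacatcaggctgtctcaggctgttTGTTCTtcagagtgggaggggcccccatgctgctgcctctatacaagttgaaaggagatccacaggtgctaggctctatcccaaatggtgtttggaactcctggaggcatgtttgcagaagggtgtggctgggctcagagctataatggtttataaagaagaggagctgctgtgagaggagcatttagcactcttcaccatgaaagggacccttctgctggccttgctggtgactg

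Many of the largest losses were in genes that were abundant with YAPi_NOTCHi, at or near 0 with COMBO, and in several cases at or near 0 in DMSO too. Sbp, which encodes the androgen-regulated spermine-binding protein of the mouse prostate, had 0.151, 0.0770 and 0.121 CPM in the COMBO libraries, against 230.5, 222 and 227 CPM in the YAPi_NOTCHi libraries, a log2 fold change of -10.67 ± 0.08, and no count in the DMSO libraries. The Scgb2b genes on chromosome 7 encode secretoglobins of the androgen-binding protein family, and their copies are similar enough that counts may be shared between them. Scgb2b4-ps, annotated as a pseudogene, had 0 counts over the COMBO group and 146, 141 and 136 CPM in the YAPi_NOTCHi libraries, at least 7184-fold lower if COMBO is set at a group floor of 3 counts. Scgb2b7 had 3 counts over the COMBO group and 169, 169 and 162 CPM in the YAPi_NOTCHi libraries, and Scgb2b15 had 2 counts over the COMBO group and 127, 129 and 127 CPM in the YAPi_NOTCHi libraries. Their levels were 8692 times lower (95% counting interval 2974 to 42155) and 9996 times lower (2767 to 82554). Scgb2b17 had 0.0284, 0.0770 and 0.121 CPM in the COMBO libraries and 145, 148 and 138 CPM in the YAPi_NOTCHi libraries. The predicted gene 9530002B09Rik, named after its values were seen, had 0 counts over the COMBO group and 635, 618 and 616 CPM in the YAPi_NOTCHi libraries, at least 31713-fold lower against the same floor. Smr2, first described as an androgen-regulated gene of the submaxillary gland, had 0.416, 0.423 and 0.563 CPM in the COMBO libraries and 58.6, 57.2 and 58.8 CPM in the YAPi_NOTCHi libraries (-7.03 ± 0.08). Abo, the blood group glycosyltransferase gene, had 2 counts over the COMBO group against 32.2, 30.5 and 31.8 CPM in the YAPi_NOTCHi libraries, a level 2466 times lower (682 to 20374). Intervals and floors cover counting error only.

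Mmp7, Tff3, Agr2, Fcgbp, Mme and Psca were also among the genes that fell, while other genes for secreted proteins, such as Dkk3 and Cxcl14, rose and are given below. Mmp7, the secreted protease matrilysin, had 4.16, 4.81 and 4.67 CPM in the COMBO libraries, against 906, 896 and 908 CPM in the YAPi_NOTCHi libraries and 1985, 1987 and 1982 CPM in the DMSO libraries, a log2 fold change of -7.69 ± 0.04 (edgeR adjusted p = 4.72e-56). Unlike Sbp, Mmp7 therefore had a level with COMBO below the levels of both other TKO groups. Tff3, a trefoil peptide of mucous secretions, had 9.82, 11.6 and 10.9 CPM in the COMBO libraries and 684, 661 and 678 CPM in the YAPi_NOTCHi libraries (-6.02 ± 0.04), with 0.638, 1.04 and 0.864 CPM in the DMSO libraries. Agr2, a protein disulfide isomerase of mucus-secreting cells, had 29.2, 27.2 and 29.3 CPM in the COMBO libraries and 476, 463 and 469.6 CPM in the YAPi_NOTCHi libraries (-4.03 ± 0.03). Fcgbp, a mucus protein, averaged 10.4 ± 0.694 CPM in the COMBO libraries and 172 ± 0.751 CPM in the YAPi_NOTCHi libraries (SD, n = 3 each; -4.00 ± 0.04). Mme, the membrane peptidase neprilysin, had 3.73, 3.50 and 2.90 CPM in the COMBO libraries and 111.7, 115 and 113 CPM in the YAPi_NOTCHi libraries (-5.00 ± 0.05). Psca, a surface antigen of prostate luminal cells, had 1.62, 1.89 and 1.65 CPM in the COMBO libraries and 30.6, 30.1 and 30.3 CPM in the YAPi_NOTCHi libraries (-4.18 ± 0.07). Wfdc3, Cdcp3, BB123696 and Bmpr1b, a receptor for bone morphogenetic proteins, were also among the large losses, with log2 fold changes of -6.40, -7.61, -6.67 and -4.40.

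**Figure D2:**
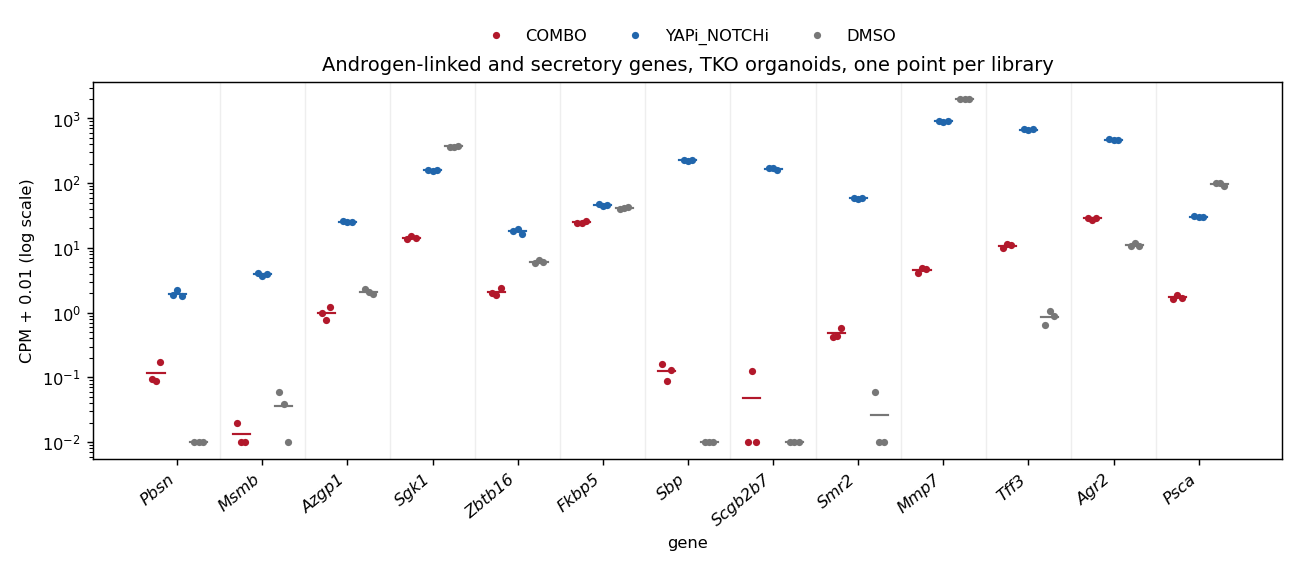
CPM plus 0.01 on a log scale for 13 genes in TKO organoids, with 1 point per library (3 each for COMBO, YAPi_NOTCHi and DMSO, left to right) and a bar at the mean. In each gene all COMBO points lie below all YAPi_NOTCHi points, by less than 2-fold for Fkbp5 and by more than 100-fold for Mmp7 and Sbp.

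The luminal list was split, and neither its keratins nor its secreted proteins all moved in the same direction. All 29 members were tested, 9 rose and 20 fell, 3 and 8 by at least 2-fold, with a median of -0.25. Beside Pbsn, Psca and Agr2, Hoxb13, the homeobox factor of the prostate, had 20.96, 19.9 and 19.7 CPM in the COMBO libraries, against 125, 117 and 118 CPM in the YAPi_NOTCHi libraries (-2.55 ± 0.04). By contrast Krt8, the simple-epithelium keratin of luminal cells, had 745, 749 and 729 CPM in the COMBO libraries and 391, 404 and 393 CPM in the YAPi_NOTCHi libraries (0.90 ± 0.02), and its partner Krt18 changed by only 0.14 ± 0.02. Krt7 rose as well (0.72 ± 0.03), while the luminal keratin Krt19 fell (-0.24 ± 0.02). Krt4, a keratin of luminal progenitor-like and stratified epithelium, rose to 341, 343 and 324 CPM in the COMBO libraries, against 109.9, 112.5 and 113 CPM in the YAPi_NOTCHi libraries (1.59 ± 0.03), though it had 2339.8, 2352 and 2361 CPM in the DMSO libraries. Among secreted proteins of the list, clusterin (Clu) and lactoferrin (Ltf) rose, by 1.22 and 0.57 on the log2 scale, and the surface protein gene Ly6d rose by 1.15. Of the 23 basal genes, 14 rose and 7 fell, with a median of 0.26. Krt5, the basal keratin, changed by 0.54 ± 0.02, Trp63, the basal lineage factor p63, by 0.36 ± 0.03, and Cdh3, P-cadherin, by 0.53 ± 0.04. Krt14, the keratin partner of Krt5, fell (-0.34 ± 0.03), as did the hemidesmosome integrin Itgb4 (-0.51 ± 0.04) and the growth factor gene Nrg1 (-0.65 ± 0.17). Dkk3, a secreted protein of the Dickkopf family, rose most in that list, with 26.4, 28.4 and 25.9 CPM in the COMBO libraries and 6.53, 6.52 and 6.23 CPM in the YAPi_NOTCHi libraries (2.06 ± 0.07).

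The genes that rose most included hormone-related enzymes, a nuclear receptor and signalling proteins. Dio2, which converts thyroxine to active thyroid hormone, had 73.0, 68.0 and 73.7 CPM in the COMBO libraries, against 5.59, 5.97 and 5.46 CPM in the YAPi_NOTCHi libraries, a log2 fold change of 3.66 ± 0.06. Rgs5, a regulator of G-protein signalling, had 91.1, 86.0 and 93.8 CPM in the COMBO libraries and 8.60, 8.13 and 7.47 CPM in the YAPi_NOTCHi libraries (3.49 ± 0.05). Both were near 2 CPM or lower in DMSO, so their levels with COMBO lay above those of both other TKO groups. Pgr, the progesterone receptor, had 23.03, 22.3 and 23.3 CPM in the COMBO libraries and 2.31, 3.14 and 3.64 CPM in the YAPi_NOTCHi libraries (2.92 ± 0.10). Peg10, an imprinted gene derived from a retrotransposon, had 19.8, 19.7 and 20.6 CPM in the COMBO libraries and 2.23, 2.12 and 2.44 CPM in the YAPi_NOTCHi libraries (3.14 ± 0.09). Car12, a membrane carbonic anhydrase, had 282, 275 and 279.5 CPM in the COMBO libraries and 45.4, 45.3 and 46.0 CPM in the YAPi_NOTCHi libraries (2.61 ± 0.03). Il1r2, the decoy receptor for interleukin 1, had 302, 299.5 and 283 CPM in the COMBO libraries and 68.6, 66.5 and 69.8 CPM in the YAPi_NOTCHi libraries (2.11 ± 0.03). In each of these 6 genes all COMBO libraries lay above all YAPi_NOTCHi libraries. Beside these and Dkk3, the 15 highest genes taken by the naming rule were Adamts15 (3.07), a matrix protease, Ccr2 (2.73), a chemokine receptor, Cyp3a13 (2.25), a cytochrome P450, Padi2 (2.18), which converts arginine to citrulline in proteins, Ppp2r2b (2.17), a phosphatase subunit, Cxcl14 (1.74), a chemokine, and the epidermal genes Krt1 (1.86) and Lor (1.84), on the log2 scale. At low levels, Penk, which encodes the opioid precursor proenkephalin, averaged 2.42 ± 0.399 CPM in the COMBO libraries and 0.0520 ± 0.0598 CPM in the YAPi_NOTCHi libraries (SD, n = 3 each; 5.41 ± 0.41), and Prb1, a salivary proline-rich protein gene, 7.05 ± 0.342 CPM and 0.156 ± 0.141 CPM (5.48 ± 0.22). Penk and Prb1 were named after their values were seen.

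Hormone-handling genes of the steroid metabolism and nuclear receptor list changed in both directions, with 14 of 28 higher and 9 lower. Hsd11b2, which inactivates glucocorticoids, had 18.9, 17.9 and 16.7 CPM in the COMBO libraries, against 99.8, 101 and 97.8 CPM in the YAPi_NOTCHi libraries (-2.45 ± 0.05). Cyp27a1, a sterol hydroxylase, changed by -1.64 ± 0.07, and Nr1d1, the clock repressor REV-ERB alpha, by 1.10 ± 0.06. Of 16 circadian clock genes 10 rose and 3 fell, with Nr1d1, Hlf (1.09) and Dbp (1.05) the highest and Npas2 (-1.09) the lowest.

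Most neuroendocrine genes were higher with COMBO than with YAPi_NOTCHi, and their summed level with YAPi_NOTCHi was already above that of DMSO. The list summed to 4709 to 4819 CPM in the COMBO libraries and 3058 to 3089 CPM in the YAPi_NOTCHi libraries. In the DMSO libraries it summed to 488 to 497 CPM. Of 39 list members, all tested, 35 rose and 1 fell, 12 and 1 by at least 2-fold, with a median log2 fold change of 0.80 against 0.07 over all genes. Chga, chromogranin A of secretory granules, had 394, 390.2 and 379 CPM in the COMBO libraries, against 188, 182 and 183 CPM in the YAPi_NOTCHi libraries (1.07 ± 0.03, edgeR adjusted p = 7.25e-28). In the DMSO libraries Chga had 0.0981, 0.0579 and 0 CPM. Insm1, a zinc finger factor of endocrine cells, had 421, 357 and 429 CPM in the COMBO libraries and 245, 262 and 254 CPM in the YAPi_NOTCHi libraries (0.67 ± 0.04). COMBO replicate 2 was the lowest of its group for Insm1 and still above every YAPi_NOTCHi library. Foxa2, a forkhead factor of neuroendocrine prostate tumours, had 202, 205 and 201 CPM in the COMBO libraries and 115, 119 and 116 CPM in the YAPi_NOTCHi libraries (0.80 ± 0.03). Syp, synaptophysin of synaptic vesicles, had 80.1, 80.4 and 76.7 CPM in the COMBO libraries and 47.1, 45.3 and 43.5 CPM in the YAPi_NOTCHi libraries (0.81 ± 0.05). Chgb, chromogranin B, and Ncam1, the neural cell adhesion molecule CD56, had log2 fold changes of 1.31 ± 0.05 and 1.23 ± 0.04. Pcsk2, a prohormone convertase, showed the largest rise of the list at a low level, with 4.96, 5.08 and 4.95 CPM in the COMBO libraries and 1.056, 1.33 and 1.28 CPM in the YAPi_NOTCHi libraries (2.02 ± 0.16). Calca, which encodes calcitonin and its gene-related peptide, was the 1 member that fell, with 24.5, 22.9 and 24.2 CPM in the COMBO libraries and 161, 152 and 162 CPM in the YAPi_NOTCHi libraries (-2.72 ± 0.04).

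Neural and endocrine transcription factors moved with these genes for the most part. Of 26 tested members of 34, 19 rose and 3 fell, with a median of 0.51. Neurod1, a proneural factor, had 5.34, 5.31 and 4.47 CPM in the COMBO libraries and 1.49, 1.26 and 0.968 CPM in the YAPi_NOTCHi libraries (2.04 ± 0.19), and had no count in the DMSO libraries. Myt1, a zinc finger factor of the nervous system, had 89.4, 88.7 and 90.5 CPM in the COMBO libraries and 44.1, 44.1 and 45.9 CPM in the YAPi_NOTCHi libraries (1.00 ± 0.04). Atoh1, a factor of secretory and sensory lineages, went the other way, with 2.12, 1.92 and 2.54 CPM in the COMBO libraries and 11.97, 13.2 and 12.5 CPM in the YAPi_NOTCHi libraries (-2.54 ± 0.11). Mycn was not called at 0.32 ± 0.34 (edgeR adjusted p = 0.418), with group means of 0.799 and 0.611 CPM in COMBO and YAPi_NOTCHi. Tuft cells are rare chemosensory epithelial cells, and of 11 tested tuft genes 9 rose and 0 fell, 6 by at least 2-fold, with a median of 1.05. The list summed to 29.2 to 29.4 CPM in the COMBO libraries and 15.9 to 17.6 CPM in the YAPi_NOTCHi libraries. Its sum in the DMSO libraries was higher than both, at 87.3 to 88.5 CPM. These genes were at low levels: Avil, which encodes the actin-binding protein advillin, had 3.70, 2.35 and 3.74 CPM in the COMBO libraries and 1.10, 1.14 and 1.35 CPM in the YAPi_NOTCHi libraries (1.50 ± 0.17), and Hpgds, a prostaglandin D synthase, 3.63, 3.85 and 3.62 CPM and 1.60, 1.10 and 1.32 CPM (1.45 ± 0.15). Ltc4s and Alox5, enzymes of leukotriene synthesis, had log2 fold changes of 1.51 and 1.29 at mean levels under 2 CPM.

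**Figure D3:**
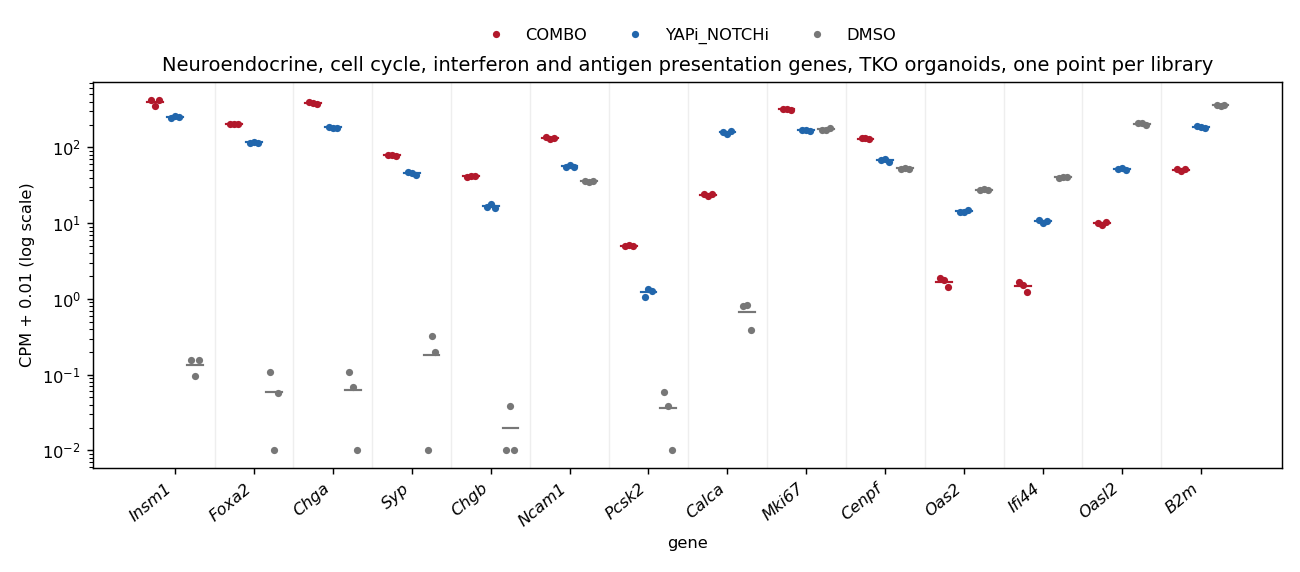
CPM plus 0.01 on a log scale for 14 genes in TKO organoids, with 1 point per library (COMBO, YAPi_NOTCHi and DMSO, left to right) and a bar at the mean. Neuroendocrine genes other than Calca and the cell cycle genes Mki67 and Cenpf are highest with COMBO, while Oas2, Ifi44, Oasl2 and B2m are lowest with COMBO and highest in DMSO.

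Interferon-induced genes formed the list with the lowest median. All 33 members were tested, 29 fell and 3 rose, 21 and 0 by at least 2-fold, with a median log2 fold change of -1.55. Beside this, the 4 tested immune cell markers summed to 21.1 to 21.5 CPM in the COMBO libraries and 21.2 to 21.9 CPM in the YAPi_NOTCHi libraries. Their sum was 171 to 176 CPM in the DMSO libraries. Of these markers 1 rose (1.64) and 1 fell (-2.82), and neither call held without COMBO replicate 1. Ptprc, the pan-leukocyte gene CD45, was too low to be tested. Interferons act through STAT factors on genes for antiviral enzymes and for antigen presentation. Oas2, an antiviral oligoadenylate synthetase, had 1.86, 1.77 and 1.41 CPM in the COMBO libraries, against 14.002, 13.98 and 14.8 CPM in the YAPi_NOTCHi libraries and 27.6, 27.97 and 27.7 CPM in the DMSO libraries (-3.02 ± 0.10). Ifi44 had 1.68, 1.50 and 1.21 CPM in the COMBO libraries and 11.1, 10.01 and 10.8 CPM in the YAPi_NOTCHi libraries (-2.77 ± 0.10), and Oasl2, 9.91, 9.55 and 10.5 CPM and 51.9, 53.9 and 50.1 CPM (-2.38 ± 0.06). For all of these the order was COMBO below YAPi_NOTCHi below DMSO. Oas3 changed by -2.29 ± 0.17. Isg15, an interferon-induced ubiquitin-like protein, had 4.97, 4.77 and 4.59 CPM in the COMBO libraries and 17.1, 18.6 and 17.4 CPM in the YAPi_NOTCHi libraries (-1.86 ± 0.08). Ifit1, an interferon-induced RNA-binding protein, fell less, with 15.9, 15.7 and 16.3 CPM in the COMBO libraries and 22.998, 22.9 and 20.8 CPM in the YAPi_NOTCHi libraries (-0.48 ± 0.05). Cmpk2, Rsad2 and Ifit2 rose, by 0.41, 0.49 and 0.49 on the log2 scale.

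Promoters of 2 interferon list genes are shown because a DNA motif by which such genes are known can be looked for in them. The core of the interferon-stimulated response element, GAAANNGAAA on both strands, was found in 458 of the 15486 windows (2.96%) and in 436 of 12128 genes (3.59%). Of the 22 interferon list genes with a window, 12 held it (54.5%), and of 11 antigen presentation genes with a window 3 held it (27.3%). Isg15 at chr4:156200769-156201068 on the minus strand held 3 overlapping matches, the first starting 78 bases before its start site. Ifit1 at chr19:34640639-34640938 on the plus strand held 2, the farther starting 104 bases before its start site. Motif and genes were again chosen after the values were seen, and a match is a description. Capitals mark the matches.
Isg15: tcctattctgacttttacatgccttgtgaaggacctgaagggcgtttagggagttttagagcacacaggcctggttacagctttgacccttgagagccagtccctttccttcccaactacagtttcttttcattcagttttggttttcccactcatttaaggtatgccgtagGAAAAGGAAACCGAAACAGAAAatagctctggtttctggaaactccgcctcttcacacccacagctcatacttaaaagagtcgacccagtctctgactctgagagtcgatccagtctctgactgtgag
Ifit1: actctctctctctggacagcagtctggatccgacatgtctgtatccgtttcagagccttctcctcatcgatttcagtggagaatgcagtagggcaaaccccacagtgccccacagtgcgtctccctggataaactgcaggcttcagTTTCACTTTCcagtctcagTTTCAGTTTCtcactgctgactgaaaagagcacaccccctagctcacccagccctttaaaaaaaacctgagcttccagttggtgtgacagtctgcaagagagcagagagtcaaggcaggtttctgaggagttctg

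Antigen presentation genes and most NF-kB and chemokine genes fell too. Of 16 tested antigen presentation genes of 18, 12 fell and 0 rose, with a median of -0.62. B2m, the light chain of class I MHC, had 52.3, 48.7 and 51.4 CPM in the COMBO libraries, against 190.3, 187 and 182 CPM in the YAPi_NOTCHi libraries and 359, 355 and 360.1 CPM in the DMSO libraries (-1.87 ± 0.03). Nlrc5, the transactivator of class I genes, changed by -2.07 ± 0.15, and the immunoproteasome subunits Psmb9 and Psmb8 by -1.48 ± 0.09 and -1.26 ± 0.09. Of 20 tested NF-kB and chemokine genes of 24, 14 fell and 3 rose, 7 and 1 by at least 2-fold, with a median of -0.55. The 3 that rose were the chemokines Cxcl15 (1.12 ± 0.02) and Cxcl5 (0.82 ± 0.03) and the cytokine gene Il33 (0.51 ± 0.03). The summed level of the list was higher with COMBO, at 893 to 919 CPM in the COMBO libraries and 751 to 759.6 CPM in the YAPi_NOTCHi libraries, with Cxcl15 averaging 487 ± 12.1 and 225 ± 2.63 CPM and Cxcl5 80.4 ± 1.69 and 45.5 ± 1.65 CPM in that order (SD, n = 3 each). Lcn2, the iron-binding protein lipocalin 2, had 6.09, 5.77 and 5.88 CPM in the COMBO libraries and 29.6, 27.4 and 28.8 CPM in the YAPi_NOTCHi libraries (-2.26 ± 0.07). Birc3, an inhibitor of apoptosis, had 17.8, 18.5 and 16.5 CPM in the COMBO libraries and 58.7, 58.3 and 59.3 CPM in the YAPi_NOTCHi libraries (-1.73 ± 0.04), and Cxcl1, a neutrophil chemokine, changed by -1.52 ± 0.10. Ccl2 was called lower at -2.14 ± 0.59 but held under 0.4 CPM in every library.

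**Figure D4:**
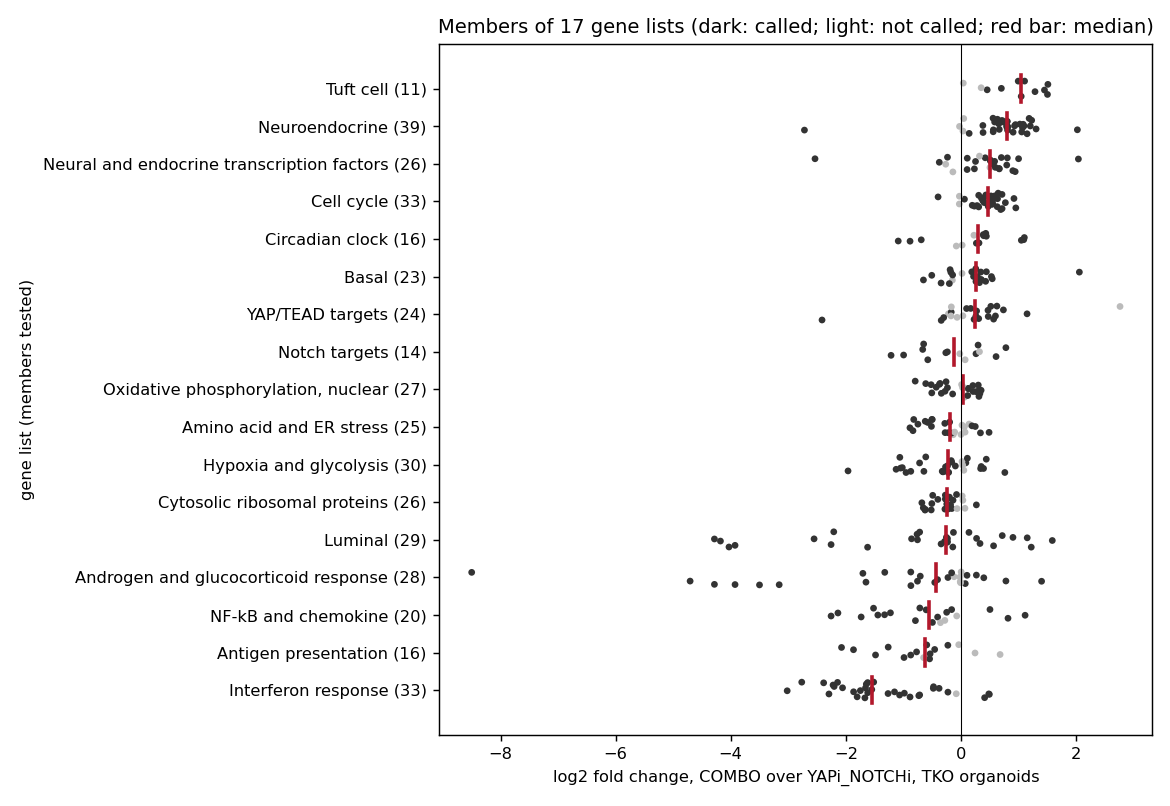
Each point is the log2 fold change, COMBO over YAPi_NOTCHi, of 1 member of a gene list in TKO organoids. Lists run down the page with the number of members tested, dark points passed the test, light points did not, and the red bar is the list's median, from 1.05 for tuft cell genes to -1.55 for interferon genes.

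Cell cycle genes rose in TKO organoids by less than 2-fold each. Of 33 members, 30 rose and 1 fell, 0 by 2-fold or more, with a median of 0.48. Mki67, which marks cycling cells, had 326, 321 and 309 CPM in the COMBO libraries, against 171, 170.1 and 164 CPM in the YAPi_NOTCHi libraries and 172, 171 and 179.9 CPM in the DMSO libraries (0.92 ± 0.03, edgeR adjusted p = 1.98e-27). The YAPi_NOTCHi level was close to that of DMSO and the COMBO level was above both. The kinetochore genes Cenpf and Cenpe changed by 0.95 ± 0.04 and 0.77 ± 0.05. Of 20 genes for CDK inhibitors, cyclins D, E2F and Rb proteins 14 rose and 4 fell. Ccnd1, cyclin D1, was lower (-1.21 ± 0.08) and was already at 10.04 CPM in the YAPi_NOTCHi libraries against 761 CPM in the DMSO libraries. Cdkn1a and Cdkn1c, which encode the CDK inhibitors p21 and p57, were higher (0.78 ± 0.05 and 0.78 ± 0.04), as was the repressor E2f7 (0.66 ± 0.06). Of 20 p53 target genes 12 rose and 3 fell, with a median of 0.15. With upper quartile scaling 8 of these rose.

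In the PtP line the same genes of the cycle went the other way. For COMBO over YAPi_NOTCHi in PtP, 59.8% of genes tested were called (34.4% higher and 25.4% lower), and of the 33 cell cycle genes 0 rose and 30 fell, with a median of -0.69. In WT, where 62.7% of genes were called (34.4% higher and 28.3% lower), 6 rose and 7 fell, with a median of -0.04. The difference of effects itself, TKO minus PtP, was called for 36% of all genes (15.4% higher and 20.6% lower), and for 31 cell cycle genes it was higher and for 0 lower. For TKO minus WT, called for 43.1% of genes (21% higher and 22.1% lower), it was higher for 13 and lower for 2. Mki67 averaged 8.16 ± 0.241 CPM in PtP COMBO libraries and 18.5 ± 0.487 CPM in PtP YAPi_NOTCHi libraries (SD, n = 3 each), and 1.45 ± 0.268 CPM and 1.49 ± 0.181 CPM in the WT pair in the same order. TKO organoids were thus at far higher Mki67 levels in both treatments. The difference of the log2 effects on Mki67 was 2.10 ± 0.07 against PtP (edgeR adjusted p = 2.49e-24) and 0.99 ± 0.19 against WT (edgeR adjusted p = 3.45e-05). Pimreg and Depdc1a, both mitotic genes, had among the highest differences against PtP, at 2.41 ± 0.18 and 2.41 ± 0.28. Fitting only the libraries of the 4 groups moved the share of called TKO minus PtP differences that were higher to 28.6%, against 42.9% with all libraries, and that of TKO minus WT to 36.3%, against 48.7%.

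Other lists differed between lines in size, and the signs of some medians differed too. Median log2 fold changes over all genes tested were 0.07 in TKO, 0.05 in PtP, 0.04 in WT and 0.004 in PRAD. List medians close to these, such as those of hypoxia genes in WT or oxidative phosphorylation genes in TKO, give no direction. The list counts of differences between lines were not recomputed with other scaling. The neuroendocrine list had medians of 0.80 in TKO, 1.39 in PtP and 0.96 in WT, and in PRAD, where 42.4% of 18483 genes were called (20.6% higher and 21.9% lower), of 0.72. The TKO effect was lower than that of PtP for 30 of 39 members and higher for 0, while the level of Chga was higher in TKO. Chga averaged 388 ± 7.68 and 185 ± 3.29 CPM in TKO COMBO and TKO YAPi_NOTCHi libraries, and 175 ± 3.89 and 59.1 ± 2.41 CPM in the PtP pair (SD, n = 3 each). The interferon list had medians of -1.55, -0.88, -0.99 and -1.07 in TKO, PtP, WT and PRAD, and the TKO effect was lower than that of PtP for 22 of 33 and higher for 2. Cytosolic ribosomal protein genes fell slightly in TKO, 21 of 26 lower and 1 higher with a median of -0.24, and their medians were 0.11 in PtP, 0.03 in WT and -0.01 in PRAD. The difference against PtP was lower for 26 of 26 and that against WT for 24 of 26. The ribosomal changes stayed below 2-fold, the lowest being Rpl32 (-0.68 ± 0.03) and Rps14 (-0.65 ± 0.03), and ribosomal protein genes have many processed copies among which reads may be split. Hypoxia and glycolysis genes had a median of -0.23 in TKO and of 0.06 in WT, where 13 of 30 rose and 9 fell, and the TKO effect was lower than that of WT for 17 and higher for 7. Nuclear genes of oxidative phosphorylation had medians of 0.03 in TKO and -0.30 in WT, and the TKO effect was higher for 23 of 27 and lower for 0. Squamous and wound genes had medians of -0.02 in TKO, 0.25 in PtP, 0.50 in WT and -1.29 in PRAD, where 22 of 24 fell and 1 rose. Basal genes had a median of 0.26 in TKO and of -0.12 in PRAD, where 5 of 23 rose and 11 fell. The difference between TKO and PRAD effects was not tested.

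**Figure D5:**
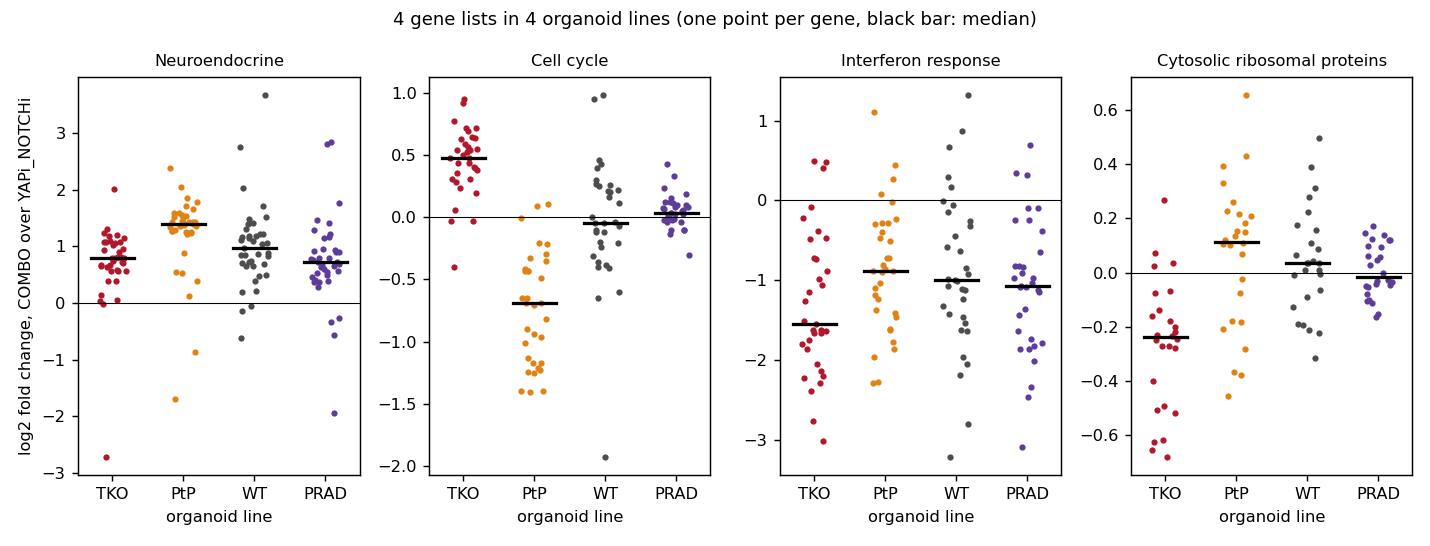
Log2 fold change, COMBO over YAPi_NOTCHi, of the members of 4 gene lists in TKO, PtP, WT and PRAD organoids, with 1 point per gene and a black bar at the median. Each panel has its own y axis, and the cell cycle medians are 0.48, -0.69, -0.04 and 0.04 in that order of lines.

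Metabolic and stress lists changed modestly. Of 30 hypoxia and glycolysis genes 7 rose and 20 fell, 5 by at least 2-fold, with a median of -0.23. Egln3, a prolyl hydroxylase induced by hypoxia, averaged 27.7 ± 0.874 CPM in the COMBO libraries and 108 ± 0.893 CPM in the YAPi_NOTCHi libraries (SD, n = 3 each; -1.96 ± 0.03), with 943 CPM in DMSO. Bnip3, a mitophagy receptor, Vegfa, the endothelial growth factor, and Hk2, hexokinase 2, changed by -1.13, -1.06 and -1.05, and Ndrg1, a stress-induced gene also linked to androgens, by -0.87 ± 0.04. Of 25 amino acid and ER stress genes 14 fell and 4 rose, with Herpud1, of ER-associated degradation, the lowest (-0.89 ± 0.03). Of 24 cholesterol synthesis genes 14 rose and 6 fell. Of 27 nuclear genes of oxidative phosphorylation 11 rose and 12 fell. Fatty acid genes gave 8 higher and 7 lower of 19. None of the last 4 lists held a member that changed by 2-fold.

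Genes of the pathways named in the treatment codes changed in both directions between these groups. Of 24 tested YAP/TEAD target genes of 25, 14 rose and 4 fell, with a median of 0.25, and with upper quartile scaling 11 rose and 6 fell. Ccn1 was not called, with 0.871, 1.15 and 0.926 CPM in the COMBO libraries, 0.743, 1.22 and 1.28 CPM in the YAPi_NOTCHi libraries and 67.5, 67.2 and 67.3 CPM in DMSO (-0.22 ± 0.19, edgeR adjusted p = 0.337). Igfbp3, an insulin-like growth factor binding protein, was the highest called member (1.15 ± 0.03) and Ccn2 the lowest (-2.41 ± 0.32), at under 1 CPM in both groups. Yap1 fell slightly, with 67.4, 66.5 and 70.3 CPM in the COMBO libraries and 92.3, 100.1 and 96.2 CPM in the YAPi_NOTCHi libraries (-0.50 ± 0.03), whereas Wwtr1, which encodes the related coactivator TAZ, rose (0.46 ± 0.06), and Tead4 fell (-1.28 ± 0.17). Of 14 tested Notch target genes of 19, 4 rose and 7 fell. Hes1 had 18.2, 14.9 and 18.6 CPM in the COMBO libraries and 26.01, 29.02 and 28.5 CPM in the YAPi_NOTCHi libraries (-0.66 ± 0.08), Nrarp, a feedback inhibitor, changed by 0.26 ± 0.08, a call that was lost without COMBO replicate 1 (0.14, edgeR adjusted p = 0.218), and Hey1 was not called at -0.02 ± 0.19 (edgeR adjusted p = 0.939). Notch1 rose (0.61 ± 0.06), as did the neural Notch ligand-like gene Dner (1.07 ± 0.03) and the glycosyltransferase Mfng (0.99 ± 0.07), while Dlk1, a non-canonical Notch ligand, fell (-4.90 ± 0.54) with its 3 YAPi_NOTCHi libraries spread over 1.92, 1.26 and 0.735 CPM.

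Matrix, adhesion and growth factor genes held single large changes inside lists of mixed direction. Of 29 tested extracellular matrix genes of 36, 11 rose and 13 fell, with Col4a2, a basement membrane collagen, at 1.50 ± 0.12 and Tnc, tenascin C, at 1.33 ± 0.16. Of 29 integrin and focal adhesion genes 12 rose and 9 fell, and Cav1, caveolin 1, averaged 0.926 ± 0.182 CPM in the COMBO libraries and 7.13 ± 0.388 CPM in the YAPi_NOTCHi libraries (SD, n = 3 each; -2.90 ± 0.12), against 95.6 CPM in DMSO. With upper quartile scaling, and again on the compared groups alone, 9 of the integrin and focal adhesion genes rose and 14 fell, so the direction of that list depends on the scaling. Among 24 TGF-beta, BMP and Id genes 10 rose and 10 fell, with Inhba at -1.78 ± 0.17 and Bmp4 at 1.11 ± 0.10. Of 26 Wnt genes 8 rose and 9 fell, with the Wnt-induced factor Sp5 at -2.45 ± 0.11 and the R-spondin receptor Lgr5 at 1.61 ± 0.12. Of 17 EGF receptor family and ligand genes 4 rose and 7 fell, and Egf itself had 5.61, 6.08 and 6.44 CPM in the COMBO libraries and 34.7, 34.7 and 34.4 CPM in the YAPi_NOTCHi libraries (-2.56 ± 0.07). Of 24 Hox genes 10 rose and 5 fell, with Hoxb13 and Hoxb9 (-1.17) the lowest, and with either of the same alternatives 9 rose and 8 fell. Of 22 AP-1 and immediate early genes 7 rose and 7 fell, and Egr1 fell most (-1.89 ± 0.05). Myc, a growth-promoting factor, was lower as well, with 26.1, 25.2 and 23.5 CPM in the COMBO libraries and 40.5, 39.7 and 38.7 CPM in the YAPi_NOTCHi libraries (-0.65 ± 0.04).

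Many genes that COMBO changed in TKO were also changed in the other lines, which share no library with TKO. Over 18430 genes the log2 fold changes of TKO correlated with those of PtP at Pearson's r = 0.80 and with those of WT at r = 0.70, and over 17052 genes with those of PRAD, from a table of its own, at r = 0.61; genes are not independent, and no p is given. Of the 837 genes lower by at least 2-fold in TKO, 506 were so in PtP (60.5% of the TKO genes and 63.3% of the PtP genes), 534 in WT (63.8% and 47.5%) and 382 in PRAD, where 709 of the 837 were tested (53.9% of those and, of PRAD genes tested in both tables, 46.8%). Over all genes tested, the shares lower by 2-fold or more were 4.34% in PtP, 6.10% in WT and 5.16% in PRAD, and the shares higher 6.72%, 5.15% and 3.00%. Of the 681 higher ones, 459 were so in PtP (67.4% and 37%), 290 in WT (42.6% and 30.6%) and 174 in PRAD, where 566 were tested (30.7% of those and 34.3%). Psca, for example, had log2 fold changes of -4.18 in TKO, -3.83 in PtP, -4.07 in WT and -4.55 in PRAD. Dio2 rose in all 4, by 3.66, 3.51, 2.03 and 4.16.

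Steroid-regulated genes differed in size between lines, and some also in direction. Klk1, of the androgen and glucocorticoid list, fell in TKO (-0.71). Its log2 fold changes were 1.50 in PtP, 2.63 in WT and -0.26 in PRAD. Fkbp5 averaged 25.1 ± 1.03 and 45.5 ± 1.56 CPM in the TKO COMBO and YAPi_NOTCHi libraries, 6.55 ± 0.762 and 34.2 ± 2.14 CPM in the PtP pair, and 5.39 ± 0.355 and 77.1 ± 2.71 CPM in the WT pair (SD, n = 3 each). Its level with COMBO was thus highest in TKO, and the difference of log2 effects was 1.50 ± 0.08 against PtP (edgeR adjusted p = 2.18e-18) and 2.97 ± 0.08 against WT (edgeR adjusted p = 2.87e-29). Zbtb16 differed in the same direction, by 1.54 ± 0.20 and 2.06 ± 0.17. Pgr rose less in TKO: its means were 22.9 ± 0.503 and 3.03 ± 0.672 CPM in the TKO pair, 57.3 ± 1.53 and 2.54 ± 0.198 CPM in the PtP pair and 23.6 ± 1.48 and 0.586 ± 0.0472 CPM in the WT pair. Hsd11b2 fell in TKO and in WT (-2.65), but in PtP it averaged 44.2 ± 0.659 CPM with COMBO and 45.6 ± 0.760 CPM with YAPi_NOTCHi, and the difference TKO minus PtP was -2.41 ± 0.07 (edgeR adjusted p = 5.56e-28). Sbp fell further in TKO than in PtP, with means of 0.116 and 226 CPM in the TKO pair and 1.49 and 186 CPM in the PtP pair, a difference of -3.74 ± 0.25.

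Beside the cell cycle and ribosomal lists, the genes that moved in opposite directions in TKO and another line included Tmem266, Myc, Ndrg1 and Fcgbp. Tmem266, which encodes a voltage-sensing membrane protein, averaged 21.6 ± 1.72 and 29.5 ± 0.158 CPM in the TKO COMBO and YAPi_NOTCHi libraries (-0.42), but 25.9 ± 1.15 and 5.63 ± 0.607 CPM in the PtP pair (2.21). Myc was lower with COMBO in TKO (-0.65) and higher in WT (1.11), and Ndrg1 was lower in TKO (-0.87) and higher in PtP (0.39) and WT (1.00). Fcgbp fell in TKO (-4.00) and in PtP (-2.21), and rose slightly in WT (0.25), where it held 7.70 ± 0.184 and 6.51 ± 0.176 CPM in the same order of treatments.

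Markers of other cell types gave the following sums per library. The 9 neuroendocrine markers summed to 1976 to 2105 CPM in the COMBO libraries, 1384 to 1422 CPM in the YAPi_NOTCHi libraries and 1.15 to 1.65 CPM in DMSO. Of 8 immune markers, whose sums stand beside the interferon list, 4 were tested, and the defining genes Ptprc, Cd3e, Cd79a and Csf1r were too low to be. Of 9 mesenchymal and fibroblast markers 4 were tested, with 20.8 to 23.6 CPM in the COMBO libraries and 40.9 to 43.3 CPM in the YAPi_NOTCHi libraries, mostly Dcn, the matrix proteoglycan decorin (-1.01 ± 0.04), while Col1a1, Col1a2, Pdgfrb, Lum and Acta2 were too low to be tested. The 3 tested of 5 endothelial markers summed to 25.2 to 26.4 CPM in the COMBO libraries and 16.6 to 17.4 CPM in the YAPi_NOTCHi libraries, of which Vwf, averaging 25.3 ± 0.558 and 16.6 ± 0.408 CPM in that order, was the larger part, and Cdh5 and Kdr were too low to be tested. In the DMSO libraries the mesenchymal and fibroblast markers summed to 179 to 189 CPM and the endothelial markers to 0.192 to 0.753 CPM. The 3 tested neuron and glia markers of 5 summed to 120 to 123 CPM with COMBO and 108 to 111 CPM with YAPi_NOTCHi. Their DMSO sums were 189 to 202 CPM. The 4 tested tuft markers of 5 summed to 12.5 to 14.3 CPM with COMBO and 6.24 to 6.62 CPM with YAPi_NOTCHi. In DMSO they summed to 6.17 to 6.92 CPM. None of the 6 seminal vesicle markers was tested.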

How the data were processed

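The deposited tables hold estimated counts per gene, which the authors made from polyA RNA libraries of mouse organoids on build mm10, per the submitters' processing notes, while the sources used here do not give the aligner, the counter or the annotation. The table used for TKO, PtP and WT has 18996 lines and 27 libraries. In it 12 lines name no gene (at most 0.0114% of a library's counts) and were left out, 17 names stand on several lines, and 41.4% of values are not whole within 0.01, so values were rounded. PRAD values come from a table of their own, normalized separately. Counts were fitted in edgeR 4.0.16 (R 4.3.3, limma 3.58.1) with 1 mean per group over all libraries of a table, TMM scaling, filterByExpr with a minimum count of 10 and the quasi-likelihood test, with Benjamini-Hochberg adjustment over all genes tested. The difference between lines is the TKO effect minus the PtP or WT effect in the same fit. The fit was also run on counts simulated from its own estimates, with known changes in few genes. That run does not bear on the choice of scaling, and no result here rests on it.

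The members and gene lists were chosen with earlier results of these data known. Named genes are a fixed set of key genes, the 4 called members with the largest change in each list, and, of called genes whose groups did not overlap, the 15 that rose and the 15 that fell most, provided their mean log2 CPM reached 3 and their name was not that of a predicted gene. The 8 highest and 8 lowest called differences against each of PtP and WT were added. A few of the genes so chosen are not reported here. Outside this rule, Sgk1, Isg15, Ifit1, 9530002B09Rik, Penk, Prb1, Klf9, Steap4, Slc45a3, Hpgd, Homer2, Klk1, Cmpk2, Rsad2, Ifit2, Krt7, Krt14, Krt19, Clu, Ltf, Ly6d, Itgb4, Cxcl15, Cxcl5 and Il33 were named after their values were seen. Ratios against 1 to 3 counts carry exact 95% counting intervals. Promoter windows are from RefSeq GRCm38.p6. Alternatives were RLE and upper quartile scaling, no filter, a replicate block, fits on the compared groups alone, DESeq2 1.42.0, a 2-fold threshold and each library left out in turn.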

Additional observations from a re-analysis of the deposited data

Results flagged for a closer look

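The effect of COMBO over YAPi_NOTCHi differed between TKO and PtP organoids for 6636 genes and between TKO and WT organoids for 7947 genes, by a test of the difference itself. Among differences chosen for the text, 28 passed the test and reached 2-fold, 15 against PtP and 13 against WT. Each had an edgeR adjusted p of at most 5.41e-08. Other named genes were not searched for this selection. Clu, Ltf and Ly6d, for example, lie outside it, with log2 fold changes of 1.22, 0.57 and 1.15 in TKO. In WT these genes had -1.11, -1.27 and -0.29, and in PtP 0.64, 0.21 and 1.02. Each value below is the log2 effect in TKO minus that in the other line.

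Against PtP, the cell cycle genes Mki67, Cenpf, Cenpe, Pimreg and Depdc1a had differences of 2.10, 2.20, 1.99, 2.41 and 2.41, each higher with COMBO in TKO and lower in PtP. The steroid-linked genes Fkbp5, Zbtb16, Pgr and Hsd11b2 had differences of 1.50, 1.54, -1.60 and -2.41. Sbp, Slc26a4 and Egln3 fell further in TKO, by differences of -3.74, -2.60 and -1.20. Fstl1 rose less in TKO, with a difference of -2.15. Tmem266 and Ndrg1 were lower with COMBO in TKO and higher in PtP, with differences of -2.63 and -1.26.

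Against WT, Fkbp5 and Zbtb16 fell less in TKO, with differences of 2.97 and 2.06, and so did Crym, Wfdc18 and Mme, with differences of 3.42, 3.39 and 3.08. Pgr rose less, with a difference of -2.37. Slc26a4, Mmp7 and Calca fell further in TKO, with differences of -4.11, -1.96 and -2.09. Tmem266, Fcgbp, Myc and Ndrg1 were lower with COMBO in TKO and higher in WT, with differences of -3.42, -4.26, -1.76 and -1.87. The cause of these differences was not tested.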

How the results depend on the processing

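With a change of at least 2-fold required, 1518 genes passed in TKO, 681 higher and 837 lower, and 51 of the 159 tested genes named here no longer passed. Klk1 is not among these 159 genes. RLE scaling, upper quartile scaling, no filter, fits on the compared groups alone and DESeq2 gave 11994, 11784, 12012, 11899 and 11178 genes, against 11980. The split turned more than the totals: with upper quartile scaling and on the compared groups alone, in that order, TKO gave 5903 higher and 5881 lower, then 5845 and 6054, against 6899 and 5081. PtP gave 5683 and 5283, then 5303 and 5415, against 6345 and 4685, and WT gave 5721 and 5831, then 5477 and 5649, against 6342 and 5215. Of the 159 genes, Cdh1, which enters the text within a marker sum only, lost its call with upper quartile scaling and turned its direction, uncalled, on the compared groups alone (log2 fold change -0.00894, edgeR adjusted p = 0.733). The others kept their direction and their call under these 5 settings, though Ccl2 and Ltc4s were too low to be fitted on the compared groups alone. The differences between lines gave 5881 to 7126 genes against PtP and 7183 to 8189 against WT under the same settings. No pairing by replicate number was detected: deviations of same-numbered libraries correlated at -0.00481, -0.0786 and 0.0112 over 11460 genes. Those of differently numbered libraries correlated at -0.0693 to 0.0703. These values cannot show that same-numbered libraries share no origin. With the replicate block, 11992 genes passed in TKO, 6678 differed from PtP and 7977 from WT, while PtP, WT and PRAD gave 11018, 11553 and 7751, and none of the 159 genes changed its call.

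With each library left out in turn, TKO gave 10889 to 11649 genes (5921 to 6694 higher and 4814 to 4968 lower). The difference against PtP gave 5928 to 6371 (2548 to 2773 and 3155 to 3672), and that against WT 7230 to 7680 (3395 to 3797 and 3482 to 4041). PtP itself gave 10065 to 10552 (5749 to 6126 and 4240 to 4562), WT 10876 to 11185 (6039 to 6125 and 4793 to 5060), and PRAD 7050 to 7259 (3314 to 3481 and 3719 to 3778). COMBO replicate 1, the deepest library, gave the lowest TKO count when left out, and of the 159 genes Nrarp (log2 fold change 0.14, edgeR adjusted p = 0.218) and Cdh1 then lost their calls. Cdh1 also lost its call without any 1 of 3 other libraries, COMBO replicate 2 and YAPi_NOTCHi replicates 2 and 3. Depth limits genes that are under 1 CPM with COMBO, such as Ccn2, Ccl2 and Msmb, whose fold changes rest on few counts.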
